A study of Mus musculus with 4 samples.

Results

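Mouse brain astrocytes in which transcripts of Mfge8 and Gldc outnumbered those of Agt and Slc6a11 were followed through 4 single-nucleus RNA-seq libraries, as candidate astrocytes of the telencephalon, the part of the forebrain that forms the cortex and striatum. Nuclei were taken when the astrocyte transcripts Slc1a3, Aqp4, Gja1, Ntsr2 and Acsbg1 together gave at least 5 unique molecular identifiers (UMIs, counts of single captured RNA molecules), when Mfge8 plus Gldc exceeded Agt plus Slc6a11, when the surface astrocyte gene Myoc was at 0, and when neither the neuron genes Rbfox3, Slc17a7, Slc17a6, Gad1 and Gad2 nor the genes Mog, Csf1r, Cldn5 and Pdgfra of other cells gave more than 1 UMI. This rule found 1040 of 78728 nuclei, and the nuclei are called Mfge8/Gldc astrocytes here. The nuclei were thus chosen by the UMI counts of these genes, so that the levels of these genes below are a description and no finding.

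The mice were male C57BL/6J and 8 weeks old. They had received a virus of the AAV9 serotype into the cisterna magna, the fluid space behind the cerebellum. The vector named AAV-VEGF-C encoded the whole mouse growth factor VEGF-C, which drives the growth of lymphatic vessels. AAV-CTRL carried a soluble fragment of mouse VEGFR3 (the product of Flt4) that cannot bind the ligand, fused to an immunoglobulin domain, and thus also made mice produce a secreted protein. Brains of 5 mice were frozen and pooled per virus, and nuclei of tissue labelled cortex or striatum were run as 1 library each. The same mice thus stand behind both regions of a virus, and the mice of a pool cannot be told apart. With 1 library per group no difference below has a replicate check: no test was run, nuclei were not treated as replicates, and every ratio compares a pair of libraries.

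Astrocytes clear glutamate and potassium from around synapses, make glutamine, lactate and lipids for neurons and wrap blood vessels with endfeet that hold the water channel aquaporin-4. Their form depends on the place where they were born: astrocytes of the cortex and striatum keep transcription factors of the embryonic telencephalon and are known for the milk fat globule protein Mfge8 and for Gldc, an enzyme that splits glycine. Astrocytes of the thalamus, midbrain and hindbrain are known instead for angiotensinogen (Agt) and the GABA transporter Slc6a11. Bdnf-TrkB signalling, thyroid hormone activation and glucocorticoid responses are among the pathways by which astrocytes of the forebrain take part in hormone and neuron signalling.

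Values below are given in the order cortex with AAV-CTRL, cortex with AAV-VEGF-C, striatum with AAV-CTRL, striatum with AAV-VEGF-C, unless stated otherwise. The libraries held 17168, 20370, 23724 and 17466 nuclei with 63165470, 78332657, 77253372 and 67773329 UMIs, and 281, 296, 344 and 275 nuclei carried a barcode that another library also held. Not all genes followed the region labels. Ppp1r1b, a gene of striatal projection neurons, stood at 62.3, 74.3, 18.1 and 18.2 UMIs per 1000000 (CPM) in the nuclei outside the set, with the lower values under the striatum label. Whether the labels name the tissue that was run cannot be told from these files, so that each comparison of cortex with striatum below is one of labels.

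The Mfge8/Gldc astrocytes numbered 320, 506, 155 and 59, and their summed UMIs were 704032, 1107647, 343471 and 161181. Their median depth was 1971.5, 1964.5, 1915 and 2372 UMIs per nucleus, with 1339.5, 1328.5, 1326 and 1551 genes. After each nucleus was thinned to 1000 UMIs, the medians were 759, 757, 766 and 766 genes, with 2, 2, 2 and 0 shallower nuclei left out. Of the Mfge8/Gldc astrocytes, Scrublet called 8, 16, 8 and 2 as doublets, droplets with more than 1 nucleus, and 5, 5, 1 and 3 carried a shared barcode. Their mitochondrial share was 1.02%, 1.15%, 1.11% and 1.20% of UMIs, beside 0.718%, 0.964%, 0.908% and 1.12% in all other nuclei. The smallest library of the set thus held 59 nuclei, and 1 nucleus alone gave 7.25% of its UMIs.

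The steps of the rule removed nuclei unevenly. The astrocyte gate passed 1521, 2121, 2600 and 1745 nuclei, and the neuron limit left 702, 988, 1609 and 1031 of them. In the libraries labelled cortex the larger part of the gated nuclei was lost at that step. As a measure of free RNA, shares of nuclei with a UMI are set below beside those of a reference set. Reference oligodendrocytes had Mog, at least 5 UMIs of myelin genes and at most 1 UMI each of the astrocyte and neuron genes of the rule (696, 851, 2061 and 1938 nuclei with medians of 1678.5, 1687, 1737 and 2051 UMIs). Slc17a7, a transporter of excitatory neurons, gave a UMI in 26.6%, 28.3%, 3.74% and 2.79% of reference oligodendrocytes and in 26.6%, 26.9%, 1.94% and 3.39% of the Mfge8/Gldc astrocytes, both held to the same limit of 1 neuron UMI. The limit on other cell types and on Myoc then left 627, 894, 1353 and 871 nuclei. Of these, 186, 252, 158 and 80 had equal sums of the 2 gene pairs and fell in neither set, and 121, 136, 1040 and 732 had more Agt plus Slc6a11 (called Agt/Slc6a11 astrocytes).

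Many nuclei stood close to the limits of the rule. The astrocyte sum was at exactly 5 UMIs in 158 of the 1040 nuclei, while 153 nuclei that met every other condition had 4. The margin of Mfge8 plus Gldc was 1 UMI in 471 nuclei, and 274 had a margin of at least 3. A neuron UMI was present in 617 nuclei, and 414 further nuclei were outside only because they held 2. Of the 1040 nuclei, 914 held a UMI of Mfge8, 483 of Gldc and 357 of both, and 395 also held a UMI of Agt or Slc6a11. The set is therefore a range along these genes more than a closed group.

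The genes of the rule stood as follows, with no finding attached. Mfge8 (ENSMUSG00000030605, chromosome 7, 79133768 to 79149060, minus strand) was at 754, 924, 853 and 844 CPM in the Mfge8/Gldc astrocytes and at 132, 203, 180.1 and 214 in the Agt/Slc6a11 astrocytes. Gldc (ENSMUSG00000024827, chromosome 19, 30098447 to 30175429, minus strand) was at 317, 289.8, 268 and 168 CPM beside 42.9, 58.6, 30.01 and 30.4. Agt was at 14.2, 19.0, 34.9 and 55.8 CPM beside 147, 157, 576 and 595, and Slc6a11 at 186, 200.4, 279.5 and 279 CPM beside 779, 808, 1768 and 1751. Slc1a3, the glutamate transporter GLAST, was at 2390.5, 2330.2, 2690.2 and 2438 CPM beside 1977, 1933, 1417 and 1324. Aqp4 was at 325, 343, 425 and 279 CPM beside 533, 345, 720.3 and 552, and at least 1 UMI of it was found in 43.1%, 42.7%, 52.3% and 35.6% of the Mfge8/Gldc astrocytes. All of these genes had UMIs in every library of the set. Positions come from GENCODE M21 on GRCm38.

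Transcription factors that the rule did not use gave a mixed check of the name. Of 10 listed factors of the telencephalon, all had UMIs in the Mfge8/Gldc astrocytes of the libraries labelled cortex, and 2 and 3 were at 0 in those labelled striatum. They summed to 413, 388, 309 and 242 CPM. The sums were 347, 370, 148 and 157 in the Agt/Slc6a11 astrocytes and 112, 122, 77.0 and 66.9 in all other nuclei. Lhx2, which sets the cortical field, was at 48.3, 43.3, 34.9 and 49.6 CPM (34, 48, 12 and 8 UMIs) beside 46.5, 49.3, 16.8 and 12.1 in the Agt/Slc6a11 astrocytes. Emx2, a factor of the dorsal telencephalon, was at 39.8, 29.8, 34.9 and 18.6 (28, 33, 12 and 3 UMIs) beside 28.6, 40.1, 6.18 and 4.97. In the libraries labelled cortex the 2 astrocyte sets thus carried Lhx2 and Emx2 at like levels, and in those labelled striatum the Mfge8/Gldc astrocytes carried more of both. Not all listed factors did so: Six3 was at 15.6, 9.93, 81.5 and 31.0 CPM beside 21.5, 9.25, 36.2 and 40.3, and Otx1 at 21.3, 20.8, 2.91 and 12.4 beside 10.7, 21.6, 11.9 and 6.07. In the libraries labelled striatum the counting intervals of the 2 sets overlapped for Lhx2 with AAV-CTRL and for Emx2 with AAV-VEGF-C. Nr2e1, a factor of neural stem cells and forebrain astrocytes, was higher in the Mfge8/Gldc astrocytes of every library, at 58.2, 40.6, 40.8 and 24.8 (41, 45, 14 and 4 UMIs) beside 14.3, 24.7, 13.7 and 16.0, with overlapping intervals in both AAV-VEGF-C libraries.

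Factors listed for regions outside the cortex and striatum were mainly found in the libraries labelled striatum. Zic1, a factor of the dorsal midline, the septum and the cerebellum, was at 11.4, 18.1, 134 and 168 CPM beside 14.3, 33.9, 125 and 128 in the Agt/Slc6a11 astrocytes and 8.86, 8.32, 101 and 106 in reference oligodendrocytes. At least 1 UMI of Zic1 was found in 2.50%, 2.96%, 22.6% and 32.2% of the Mfge8/Gldc astrocytes and in 1.29%, 1.29%, 17.2% and 19.8% of reference oligodendrocytes. Zic4 was at 4.26, 13.5, 99.0 and 55.8 beside 17.9, 37.0, 33.1 and 22.1. Otx2, a factor of the midbrain and choroid plexus, was at 8.52, 2.71, 23.3 and 62.0 beside 3.58, 15.4, 42.4 and 40.3. The 22 listed factors, among which Zic1 also marks the septum of the telencephalon, summed to 54.0, 68.6, 355 and 403 CPM, and 14, 14, 6 and 8 of them were at 0. The sums were 85.8, 145, 331 and 325 in the Agt/Slc6a11 astrocytes and 35.8, 35.3, 239.6 and 250.1 in all other nuclei. How much of these UMIs in the libraries labelled striatum was free RNA was not tested. Since the factors did not settle the name there, the nuclei are named by their leading genes.

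**Figure D1:**
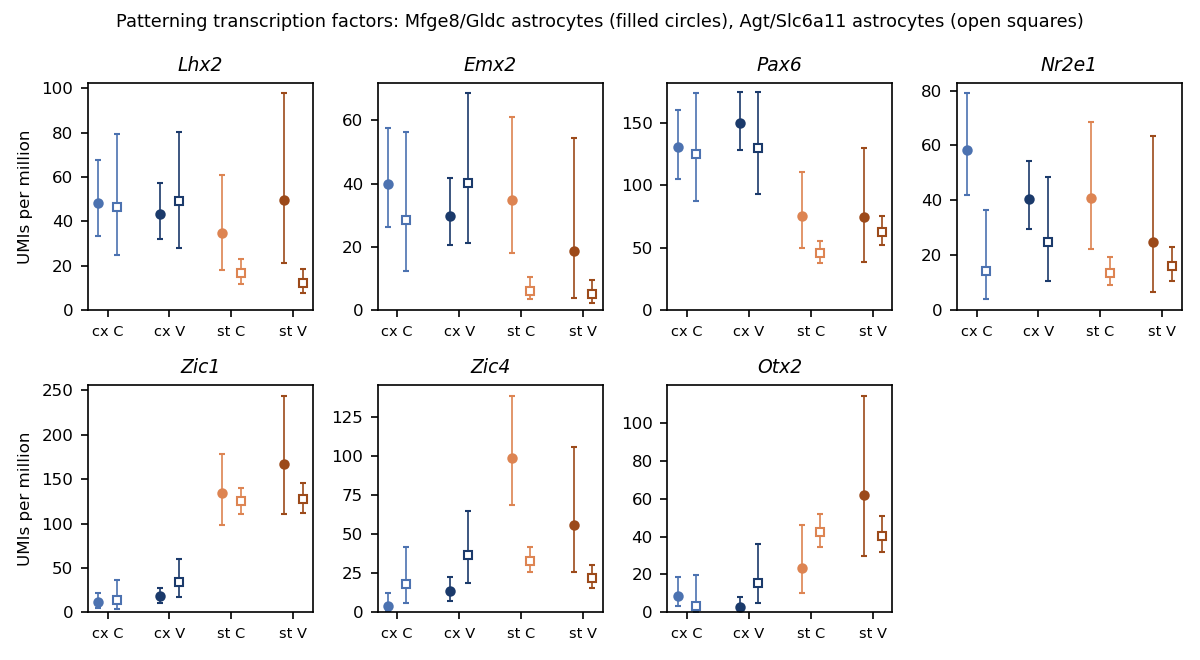
Levels of 7 patterning transcription factors in UMIs per 1000000 (vertical axes) for the 4 libraries (cx, cortex label; st, striatum label; C, AAV-CTRL; V, AAV-VEGF-C), with filled circles for Mfge8/Gldc astrocytes, open squares for Agt/Slc6a11 astrocytes and bars for exact Poisson 95% intervals. Lhx2 of the Mfge8/Gldc astrocytes stood at 48.3, 43.3, 34.9 and 49.6, and Zic1 at 11.4, 18.1, 134 and 168.

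The share of Mfge8/Gldc astrocytes moved in opposite directions between AAV labels under the 2 region labels. They were 1.86% (exact binomial 95% interval 1.67 to 2.08) of the nuclei of the cortex AAV-CTRL library and 2.48% (2.27 to 2.71) of cortex AAV-VEGF-C. In the libraries labelled striatum they were 0.653% (0.555 to 0.764) with AAV-CTRL and 0.338% (0.257 to 0.436) with AAV-VEGF-C. The log2 ratio of AAV-VEGF-C over AAV-CTRL was 0.41 (0.21 to 0.62) in the cortex label and −0.95 (−1.41 to −0.51) in the striatum label. All intervals hold counting error alone and say nothing of how mice, pools or preparations vary. Among the gated astrocytes, which the neuron limit shaped as well, the shares were 48.1%, 53.9%, 10.6% and 6.48%, and the log2 ratio was 0.16 (−0.04 to 0.37) for the cortex label, within its counting interval of 0, and −0.71 (−1.17 to −0.27) for the striatum label. Of the other astrocyte sets, the Agt/Slc6a11 astrocytes gave log2 ratios of their share of all nuclei of −0.08 (−0.44 to 0.29) and −0.06 (−0.20 to 0.07), those with equal sums 0.19 (−0.09 to 0.47) and −0.54 (−0.95 to −0.14), and those with Myoc −0.003 (−0.66 to 0.66) and −1.001 (−1.57 to −0.46). The lower share under the striatum label was thus also measured in the sets with equal sums and with Myoc.

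Between region labels the difference was larger. The log2 ratio of the share in the striatum over the cortex label was −1.51 (−1.80 to −1.23) with AAV-CTRL and −2.88 (−3.29 to −2.49) with AAV-VEGF-C. The Agt/Slc6a11 astrocytes went the other way, at 2.64 (2.36 to 2.92) and 2.65 (2.38 to 2.93).

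**Figure D2:**
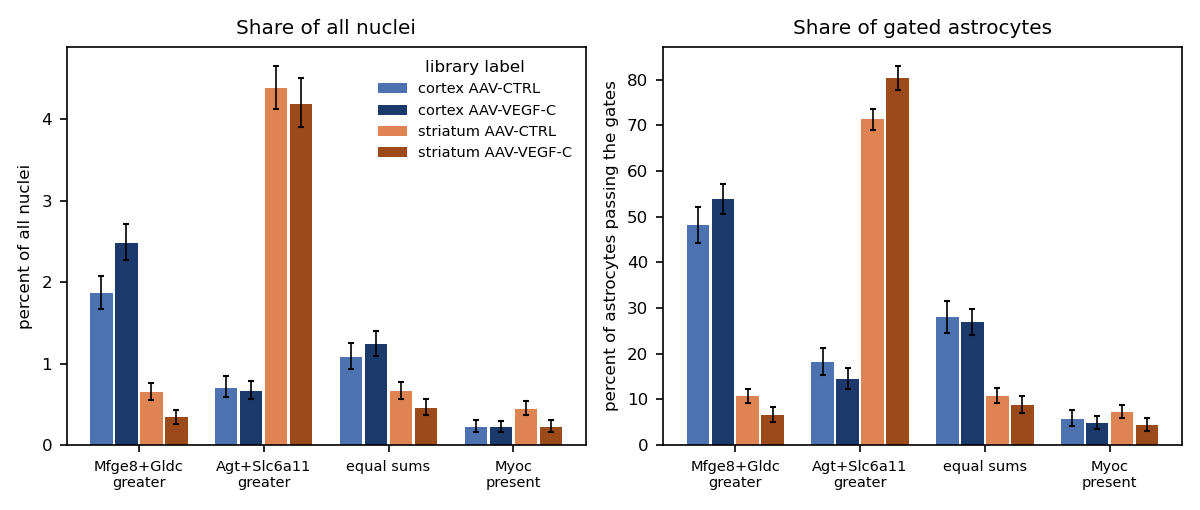
Share of nuclei in 4 astrocyte sets (Mfge8+Gldc greater, Agt+Slc6a11 greater, equal sums, Myoc present) for the 4 libraries, as percent of all nuclei (left) and of astrocytes that passed the gates (right), with exact binomial 95% intervals. The Mfge8/Gldc astrocytes made up 48.1% and 53.9% of gated astrocytes in the libraries labelled cortex and 10.6% and 6.48% in those labelled striatum.

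For each gene, UMIs were summed over the Mfge8/Gldc astrocytes of a library and scaled to a sum of 1000000. A gene was compared where the 2 libraries together held at least 100 UMIs of it, and was called past the fold at a ratio of at least 1.5 in either direction. Under the cortex label 4014 genes were compared, of which 59 were higher with AAV-VEGF-C (1.47% of those compared) and 62 lower (1.54%). Under the striatum label 804 genes reached 100 UMIs, of which 20 were higher (2.49%) and 32 lower (3.98%). The median log2 ratio over all genes compared was 0.00 and −0.04. Scaling by edgeR's trimmed mean of M values (TMM) instead gave 63 higher and 54 lower genes under the cortex label and 12 higher and 57 lower under the striatum label. Of 801 genes compared under both labels, 2 were past the fold upward in both (0.25%) and none downward (0%).

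Both of these genes encode proteins of the small ribosomal subunit. Rps28 (ENSMUSG00000067288, chromosome 17, 33819027 to 33824562, minus strand) was at 180.4, 311, 198 and 354 CPM (127, 344, 68 and 57 UMIs), and its log2 ratio was 0.78 (0.49 to 1.09) under the cortex and 0.84 (0.30 to 1.37) under the striatum label. Rps29 (ENSMUSG00000034892, chromosome 12, 69157722 to 69159186, minus strand) was at 487, 814, 477 and 726 CPM, with 0.74 (0.56 to 0.92) and 0.60 (0.25 to 0.96). Each AAV-VEGF-C library stood above both AAV-CTRL libraries for either gene. Over the alternatives tried, Rps28 kept its direction at 0.37 to 1.18 under the cortex and 0.38 to 1.35 under the striatum label, and Rps29 at 0.58 to 0.91 and 0.38 to 0.59, where 1.5-fold is 0.585 on the log2 scale. Of these alternatives, leaving out shared barcodes alone kept Rps29 past the fold under the striatum label. The same genes were higher in all other nuclei of the same libraries, Rps28 by 0.51 and 0.58 and Rps29 by 0.56 and 0.58 on the log2 scale. Of the 83 genes of cytosolic ribosomal proteins, a list written after these values had been seen, 75 were compared under the cortex label, with 9 higher (beside 1.47% of all genes), none lower and a median log2 ratio of 0.39. Under the striatum label 33 were compared, with 4 higher (beside 2.49% of all genes), none lower and a median of 0.37. Rps28 and Rps29, which had prompted the list, are among the higher genes under both labels. In all other nuclei the medians of the ribosomal genes compared were 0.23 and 0.30. Ribosomal protein transcripts made up 1.32%, 1.71%, 1.44% and 1.82% of UMIs in the Mfge8/Gldc astrocytes and 1.06%, 1.29%, 1.24% and 1.55% in the rest, higher with AAV-VEGF-C in both. Many ribosomal protein genes have near-identical processed copies, and how the authors' counting divided such reads is not given in the sources used here.

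Under the cortex label, the genes with the highest ratios with AAV-VEGF-C were of several kinds. Atox1, a copper chaperone, was at 36.9, 71.3, 52.4 and 93.1 CPM with a log2 ratio of 0.95 (0.29 to 1.65). Edf1, a transcription coactivator, was at 44.0, 84.0, 52.4 and 68.2 CPM with 0.93 (0.33 to 1.57). Coa3, which helps to assemble cytochrome c oxidase, was at 52.6, 96.6, 87.3 and 55.8 CPM with 0.88 (0.33 to 1.46). In all other nuclei of these libraries the ratios of the 3 genes were 0.35, 0.35 and 0.33. The ribosomal gene Rpl10 gave 0.95 (0.31 to 1.63), and the splicing factor Snrnp27 gave 0.93 (0.26 to 1.65).

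Among the higher genes of glial function were Id3, Sox9 and Cst3. Id3, an inhibitor of DNA-binding proteins downstream of BMP signalling, was at 66.8, 118, 111 and 99.3 CPM (47, 131, 38 and 16 UMIs), with a log2 ratio of 0.83 (0.33 to 1.34) under the cortex label and −0.16 (−1.10 to 0.72) under the striatum label. The cortex AAV-CTRL library was the low one, and the other 3 lay close together. With every nucleus thinned to 1000 UMIs and the rule applied again, the ratio of Id3 turned to −0.34 under the cortex label. In all other nuclei the ratio of Id3 was −0.10 and −0.11. Sox9, a transcription factor of astrocyte fate, was at 81.0, 122, 116 and 161 CPM with 0.59 (0.13 to 1.06) under the cortex label. Cst3, the protease inhibitor cystatin C, was at 1923, 2902, 3232 and 3096 CPM with 0.59 (0.50 to 0.69) under the cortex label. Both ratios lay close to the limit of 0.585, and cortex AAV-CTRL was the lowest library for both genes. In the clusters described below, Sox9 was at 31.8 to 104 CPM in clusters 1 to 6 and at 451 in cluster 7. Tsc22d3, a glucocorticoid-induced gene, was at 46.9, 78.5, 128 and 93.1 CPM, with 0.74 (0.15 to 1.37) under the cortex label and −0.46 (−1.41 to 0.41) from 44 and 15 UMIs under the striatum label.

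Several of the lowest ratios under the cortex label rested on single nuclei. Ttr, the thyroxine carrier transthyretin of the choroid plexus, was at 618, 161, 166 and 130.3 CPM, with a log2 ratio of −1.94 (−2.203 to −1.69), but 1 nucleus held 65.1% of its UMIs in cortex AAV-CTRL. Without the nucleus richest in Ttr in either library the ratio was −0.48 (−0.80 to −0.15), and in all other nuclei it was 0.90. Galntl6, a glycosyltransferase gene, was at 243, 98.4, 146 and 74.5 CPM with −1.304 (−1.66 to −0.95), and 1 nucleus held 56.1% of its UMIs there. Its ratio was 0.19 without the 83 nuclei of 4 clusters led by genes of other cell types that are described below. Over all 121 genes past the fold under the cortex label, 11 had at least 25% of the UMIs of either library in 1 nucleus, and 105 stayed past the fold without the richest nuclei.

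Other low genes were spread over more nuclei. Sod2, the mitochondrial superoxide dismutase, was at 96.6, 50.6, 52.4 and 68.2 CPM with a log2 ratio of −0.93 (−1.47 to −0.40) under the cortex label, beside 0.01 in all other nuclei. Xkr4, a scramblase family gene, was at 141, 72.2, 99.0 and 130.3 CPM with −0.96 (−1.40 to −0.52), and Enpp2, the lipid enzyme autotaxin, gave −0.92 (−1.32 to −0.53). Wipf1 and Cpped1 each gave −0.85 (−1.41 to −0.30). Nxph1, a neurexin ligand, gave −1.12 (−1.64 to −0.61) with 25.3% of its AAV-CTRL UMIs in 1 nucleus, and 0.01 after thinning. Under the striatum label the ratios of Sod2, Xkr4, Nxph1, Wipf1 and Cpped1 were positive, and each rested on fewer than 100 UMIs there.

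**Figure D3:**
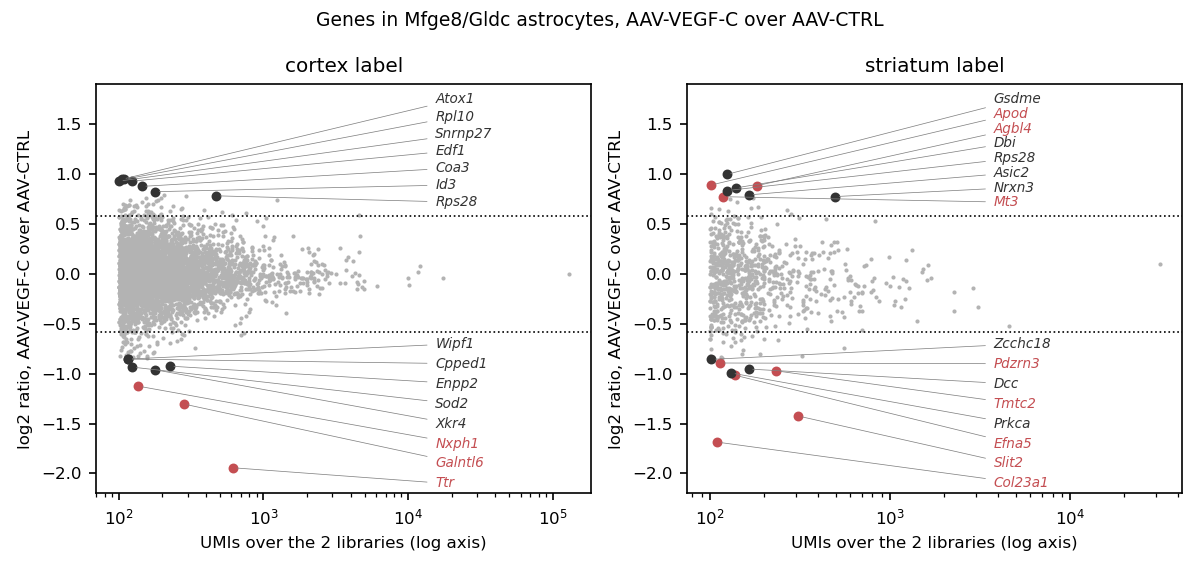
Log2 ratio of AAV-VEGF-C over AAV-CTRL (vertical axis) against UMIs summed over the 2 libraries (horizontal log axis) for each gene in Mfge8/Gldc astrocytes, with dotted lines at 1.5-fold and named genes in red where 1 nucleus held at least 25% of the UMIs of a library. Of 4014 genes under the cortex label 121 lay beyond the lines, and of 804 under the striatum label 52 did.

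Under the striatum label several of the lowest genes rested on few nuclei. Slit2, a repellent of growing axons, was at 38.4, 52.4, 766 and 285 CPM with a log2 ratio of −1.42 (−1.91 to −0.97). A single nucleus held 86.3% of the UMIs of Slit2 in striatum AAV-CTRL, and the ratio was 0.80 without the richest nucleus of each library and 1.44 without the 83 nuclei named above. Col23a1, a membrane collagen, gave −1.69 (−2.61 to −0.87) with 86.5% of the UMIs in 1 nucleus, and 1.39 without those 83 nuclei. Both directions therefore turned with the choice of nuclei. The same nucleus-level concentration was 44.6% for the guidance ligand Efna5 and 44.0% for the ubiquitin ligase Pdzrn3, whose ratios were −1.02 (−1.69 to −0.39) and −0.89 (−1.62 to −0.22).

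The netrin receptor gene Dcc and Zcchc18 were lower in more evenly spread counts. Dcc was at 464, 426, 384 and 199 CPM with −0.95 (−1.56 to −0.39) under the striatum label, or 0.45 after thinning to 1000 UMIs, and −0.12 (−0.33 to 0.08) under the cortex label. Zcchc18 was at 145, 173, 236 and 130.3 CPM with −0.86 (−1.62 to −0.15) and 0.26 (−0.10 to 0.62). The kinase Prkca and Tmtc2 gave −0.99 (−1.68 to −0.35) and −0.97 (−1.47 to −0.50) under the striatum label, with 24.5% and 33.0% of the AAV-CTRL UMIs in 1 nucleus, and Tmtc2 turned to 0.61 after thinning. Bmpr1b, a BMP receptor, was at 344, 429, 448 and 285 CPM with −0.65 (−1.16 to −0.17).

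The higher genes under the striatum label were of several kinds. Gsdme, a pore-forming gasdermin, was at 192, 228, 186 and 372 CPM with a log2 ratio of 1.00 (0.47 to 1.53) and 0.25 (−0.06 to 0.56) under the cortex label, and striatum AAV-VEGF-C stood above the other 3 libraries. Dbi, which binds acyl-CoA esters and gives rise to peptides that act on GABA receptors, was at 227, 263, 218 and 397 CPM with 0.86 (0.36 to 1.36). Mt3, a metallothionein of the brain, was at 319.6, 416, 192 and 329 CPM with 0.78 (0.23 to 1.32), and 32.1% of its UMIs in striatum AAV-VEGF-C lay in 1 nucleus. Apod, a lipid carrier, gave 0.89 (0.30 to 1.48) with 61.7% of its UMIs in 1 nucleus, and −0.36 (−1.22 to 0.44) without the richest nuclei. Agbl4, with 34.1% of its AAV-VEGF-C UMIs in 1 nucleus, Asic2 and Nrxn3 gave 0.89, 0.79 and 0.78 under the striatum label and −0.22, −0.51 and −0.17 under the cortex label, and after thinning Agbl4 and Asic2 gave −0.29 and −0.03 under the striatum label. Of the 52 genes past the fold under the striatum label, 39 stayed past it without the richest nuclei and 3 changed direction.

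Core astrocyte functions were read next from gene lists, with the genes of the rule left out of every count. Each count stands beside the shares of all genes past the fold, which were 1.47% higher and 1.54% lower under the cortex and 2.49% higher and 3.98% lower under the striatum label. Glutamate uptake and glutamine synthesis differed little between AAV labels. Slc1a2, the main glutamate transporter GLT-1, was at 6484, 6863, 5899 and 5360.4 CPM, with 0.08 (0.03 to 0.14) and −0.14 (−0.25 to −0.02). Glul, glutamine synthetase, was at 337, 380.1, 349 and 341 CPM. Of 9 listed uptake genes compared under the cortex label none was past the fold (median −0.03), and of 6 under the striatum label 1 was lower (median −0.05). The counting intervals of Glul overlapped in all 4 libraries.

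Endfoot and coupling genes gave a like picture. Gja1, the gap junction protein connexin 43 and a gene of the rule, was at 615, 684, 879 and 813 CPM. Dtna, a dystrobrevin of the endfoot membrane, was at 1274, 1296, 1453 and 1160.2 CPM with 0.03 (−0.10 to 0.15) and −0.32 (−0.57 to −0.08), and Hepacam, an adhesion molecule, at 462, 432, 425 and 434 CPM. None of 11 and 5 listed genes compared was past the fold, at medians of −0.07 and 0.03. Aqp4, a gene of the rule, gave 0.08 (−0.16 to 0.32) and −0.61 (−1.12 to −0.12), the latter from 146 and 45 UMIs. For ion transport, the bicarbonate transporter Slc4a4 was at 1132, 1209.8, 1645 and 1470.4 CPM, and none of 11 and 4 genes was past the fold (medians −0.06 and −0.10).

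No lipid transport gene and 1 sterol gene was past the fold under the cortex label. Apoe, the lipid carrier apolipoprotein E, was at 2175, 2832, 3398 and 3301 CPM with 0.38 (0.29 to 0.47) and −0.04 (−0.19 to 0.11), below the fold, and its level in cortex AAV-CTRL was the lowest of the 4. Clu, clusterin, was at 1172, 1390.3, 1077 and 1284 CPM with 0.25 (0.12 to 0.37) and 0.25 (0.001 to 0.50). The 13 lipid transport genes compared had a median log2 ratio of 0.25 under the cortex label, with none past the fold, and 5 had −0.04 under the striatum label. In all other nuclei these medians were 0.01 and −0.07. Of 12 cholesterol synthesis genes, Sc5d was lower at −0.60 (−1.17 to −0.03), and the median was −0.09. Serine, glycine, glycogen and energy genes gave no gene past the fold, at medians of 0.29 over 2 genes and 0.11 over 7 under the cortex label.

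Genes that shape synapses and receive signals were also near parity under the cortex label. Under the striatum label their medians lay below the −0.04 of all genes compared there. Gpc5, a membrane proteoglycan and the most abundant of the listed synapse and matrix genes by CPM, was at 5632, 5491, 4848 and 3741 CPM with −0.04 (−0.09 to 0.02) and −0.37 (−0.51 to −0.24). Of 17 such genes 1, Tnr, was lower under the cortex label at −0.74 (−1.06 to −0.42), and the median was −0.05, while 11 gave −0.27 under the striatum label with none past the fold. Tnr was also on the list of oligodendrocyte precursor genes. In the clusters described below it was at 95.4, 124, 195 and 70.3 CPM in clusters 1, 2, 3 and 6. In clusters 4, 5 and 7, led by genes of other cells, it was at 628, 747 and 648 CPM. Grm3, the glutamate receptor mGluR3, was at 1535, 1555, 1278 and 1036 CPM with 0.02 (−0.09 to 0.13) and −0.30 (−0.57 to −0.04). Of 15 and 5 receptors of transmitters and peptides none was past the fold, at medians of 0.01 and −0.24. Mertk, a receptor for engulfed cell material, was at 928, 915, 693 and 558 CPM with −0.02 (−0.16 to 0.13) and −0.31 (−0.68 to 0.04).

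**Figure D4:**
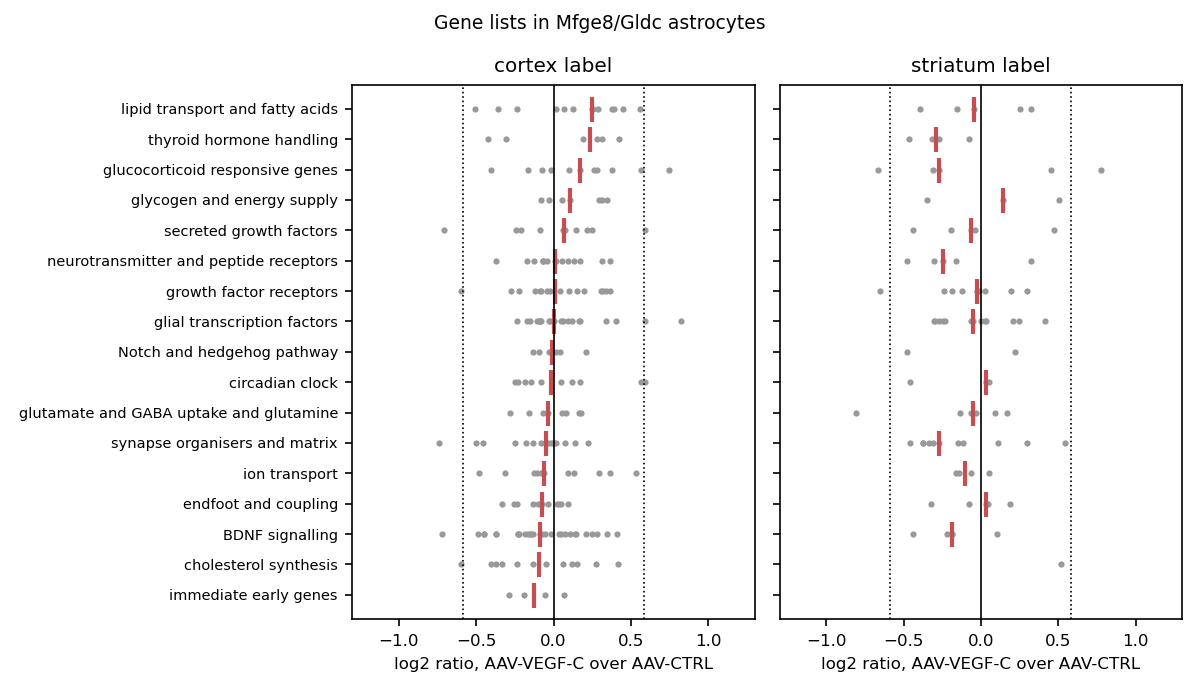
Log2 ratio of AAV-VEGF-C over AAV-CTRL (horizontal axes) for the genes of each list with at least 100 UMIs (grey points, genes of the rule left out) in Mfge8/Gldc astrocytes, with the list median in red where at least 3 genes were compared and dotted lines at 1.5-fold. List medians under the cortex label lay between −0.12 (immediate early genes) and 0.25 (lipid transport).

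The ligand that the virus carried and its receptors were close to the detection limit in these nuclei. Vegfc gave 4, 12, 6 and 4 UMIs, and at least 1 UMI of it was found in 1.250%, 2.37%, 3.87% and 6.78% of the Mfge8/Gldc astrocytes and 0.287%, 0.353%, 0.970% and 0.826% of reference oligodendrocytes. A share of 3 nuclei corresponds to 0.938%, 0.593%, 1.94% and 5.08% of the set, so that a rise of Vegfc could not be judged at this depth, and whether vector transcripts would be counted as Vegfc was not tested. Flt4, the receptor VEGFR3, gave 1, 0, 3 and 0 UMIs, and Kdr, VEGFR2, gave 4, 2, 2 and 2 UMIs. Vegfa, which astrocytes secrete, was measurable at 135, 116, 114 and 112 CPM, with −0.22 (−0.62 to 0.17) under the cortex label. Nrp1 and Nrp2, coreceptors, gave 50, 77, 33 and 8 UMIs and 32, 47, 13 and 5 UMIs.

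BDNF signalling was read because the study asked about it. Ntrk2, the receptor TrkB, was at 1082, 1018, 1377 and 1209.8 CPM (762, 1128, 473 and 195 UMIs), with log2 ratios of −0.09 (−0.22 to 0.05) and −0.19 (−0.43 to 0.06), both below the fold. Of 29 listed genes of the pathway compared under the cortex label, Foxo3 alone was past the fold, lower at −0.72 (−1.23 to −0.21), and the median was −0.09. Of 5 compared under the striatum label none was, with a median of −0.19. Of all genes, 1.47% were past the fold upward and 1.54% downward under the cortex label.

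Growth factor receptors, secreted factors and transcription factors held single genes past the fold. Gfra1, a receptor of glial-derived neurotrophic factor, was at 189, 125, 192 and 236 CPM with −0.60 (−0.95 to −0.25) under the cortex and 0.30 (−0.32 to 0.89) under the striatum label, and it was 1 of 16 receptors compared there. Bmp6 was lower at −0.71 (−1.27 to −0.14) among 10 secreted factors, while Cst3 was higher. In the clusters described below, Bmp6 was at 8.31 to 63.6 CPM in clusters 1 to 5. It was at 703 and 346 CPM in clusters 6 and 7, which were led by genes of other cells. Of 21 glial transcription factors Id3 and Sox9 were higher and none was lower, beside 1.47% and 1.54% of all genes, with a median of 0.00, and the ratio of Id3 turned to −0.34 after thinning. Of 11 glucocorticoid-responsive genes Tsc22d3 was higher (median 0.17), and of 5 under the striatum label Mt3 was higher and Nr3c2, the mineralocorticoid receptor, lower at −0.67 (−1.26 to −0.10). Of 10 clock genes Nr1d2 was higher at 0.59 (0.10 to 1.11) (median −0.02). None of 6 genes of thyroid hormone handling, 6 of the Notch and hedgehog pathways or 4 immediate early genes was past the fold under the cortex label (medians 0.24, −0.01 and −0.12).

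Genes of reactive astrocytes were scarce. The 38 listed genes summed to 554, 524, 804 and 856 CPM, and 9, 10, 11 and 16 of them were at 0. Gfap, the intermediate filament of reactive and white matter astrocytes, was at 78.1, 115, 163 and 99.3 CPM (55, 127, 56 and 16 UMIs), with 0.55 (0.09 to 1.04) under the cortex label, short of the fold, and −0.72 (−1.62 to 0.11) from fewer than 100 UMIs under the striatum label. At least 1 UMI of Gfap was found in 11.6%, 14.03%, 24.5% and 20.3% of nuclei, beside 2.59%, 3.41%, 7.81% and 4.90% of reference oligodendrocytes. No reactive gene was past the fold between AAV labels among the 2 compared under the cortex label.

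Between region labels more genes differed. The Mfge8/Gldc astrocytes of the striatum over the cortex label had 147 higher genes (6.45% of 2278) and 223 lower genes (9.79%) with AAV-CTRL. With AAV-VEGF-C, 227 were higher (8.1% of 2803) and 415 lower (14.8%). The counting interval excluded parity for 361 of the genes past the fold with AAV-CTRL and for 425 with AAV-VEGF-C. Without the richest nuclei 337 and 547 stayed past the fold. With AAV-VEGF-C the set held 161181 UMIs under the striatum label beside 1107647 under the cortex label. The larger count with AAV-VEGF-C is therefore not read as a larger difference between region labels. Of 2244 genes compared with both viruses, 53 were higher in both (2.36%) and 128 lower in both (5.7%). The medians over all genes were 0.03 and −0.03. TMM scaling gave 109 higher and 286 lower genes with AAV-CTRL and 99 higher and 624 lower with AAV-VEGF-C.

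The lowest genes of the striatum label included neuronal transcripts, and they were low in the other nuclei as well. Nrgn, the neuronal calmodulin-binding protein neurogranin, was at 1126, 1285, 116 and 74.5 CPM, with log2 ratios of the striatum over the cortex label of −3.27 (−3.77 to −2.82) and −4.11 (−5.07 to −3.30), beside −3.03 and −3.51 in all other nuclei. At least 1 UMI of Nrgn was found in 91.6%, 94.1%, 22.6% and 16.9% of the Mfge8/Gldc astrocytes and in 90.1%, 92.4%, 19.7% and 20.8% of reference oligodendrocytes, so that the former share lay at the background of these libraries. Egr1, an immediate early gene, was at 312, 256, 34.9 and 62.0 CPM and was found in 47.5%, 41.9%, 7.10% and 15.3% of nuclei, beside 47.6%, 42.1%, 10.7% and 9.49% of reference oligodendrocytes. Of the other lowest genes, 3110035E14Rik, Nptxr, Dlgap2, Baiap2, Ctxn1, Cnksr2, Sv2b and Hpcal4 had ratios between −3.92 and −1.78, and between −2.83 and −1.48 in all other nuclei.

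The genes higher under the striatum label in both comparisons were of several kinds. Erbb4, a neuregulin receptor, was at 195, 161, 451 and 459 CPM with 1.21 (0.87 to 1.56) and 1.51 (1.10 to 1.91), beside 0.46 and 0.27 in all other nuclei. Gria4, an AMPA receptor subunit, was at 116, 112, 268 and 335 CPM with 1.20 (0.76 to 1.65) and 1.58 (1.09 to 2.05). Slit2 gave 4.32 and 2.45, or 1.85 and 2.94 without the 83 nuclei. Zfhx3 was at 95.2, 122, 262 and 285 CPM with 1.46 and 1.23, and less than in all other nuclei, at 2.47 and 2.62. Efna5, Lrmda, Spon1, Impact, Sgcd and Adgrv1 had ratios between 0.77 and 1.96.

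Among listed genes, Pax6, a transcription factor of cortical radial glia, was lower under the striatum label at −0.79 (−1.48 to −0.15) and −1.01 (−1.99 to −0.17), with 131, 149.9, 75.7 and 74.5 CPM. Its log2 ratio in all other nuclei was 0.43 and 0.05. In the Agt/Slc6a11 astrocytes Pax6 was at 125, 129, 45.9 and 63.0 CPM, and thus also lower under the striatum label. Id2 was lower at −0.94 and −1.60 and its relative Id4 higher at 0.75 and 0.66. Scd2, a fatty acid desaturase, was higher at 0.72 and 0.79.

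Uptake and endfoot genes were also compared between region labels. None of 9 uptake genes compared with AAV-CTRL and none of 9 endfoot genes with either virus was past the fold. With AAV-VEGF-C 2 of 9 uptake genes were higher under the striatum label and none lower. Of all genes, 6.45% were higher and 9.79% lower with AAV-CTRL, and 8.1% and 14.8% with AAV-VEGF-C. The medians over all genes were 0.03 and −0.03. In all other nuclei the same uptake genes had medians of 0.69 and 0.75 and the endfoot genes 0.32 and 0.13, beside 0.19 and −0.13 and −0.02 and 0.09 in the Mfge8/Gldc astrocytes. The other nuclei mix cell types, and Agt/Slc6a11 astrocytes made up 0.705%, 0.668%, 4.38% and 4.19% of all nuclei. The part of cell make-up in the medians of the other nuclei was not tested. Dkk3, a secreted regulator of Wnt signalling, was at 203, 205, 186 and 248 CPM in the Mfge8/Gldc astrocytes, with −0.12 (−0.57 to 0.31) and 0.28 (−0.25 to 0.77), while its ratio in all other nuclei was −2.25 and −2.32. In the Agt/Slc6a11 astrocytes the ratio of Dkk3 was −2.17 and −1.65.

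The Mfge8/Gldc astrocytes were set beside the Agt/Slc6a11 astrocytes of the same library. The rule divides the sets, so that this is a description from which nothing is read. Of 6916 genes with at least 200 UMIs over both sets and UMIs in each, 171 had a median log2 ratio past 1.5-fold upward (2.47%) and 198 downward (2.86%). The highest median was that of Lama3, a laminin chain, with log2 ratios of 0.63, 1.11, 3.25 and 3.28. Emx2os, the transcript antisense to Emx2, gave 0.74, −0.23, 3.41 and 3.49. How its reads were divided from those of Emx2 is not given in the sources used here. Lypd6 gave 1.32, 0.62, 2.58 and 2.19, Gfra1 1.20, 0.09, 2.15 and 2.93 and the thyroid hormone-binding protein gene Crym 0.05, 0.79, 2.40 and 3.17. The differences were larger in the libraries labelled striatum for Lama3, Emx2os, Lypd6, Gfra1 and Crym.

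The levels behind these ratios show where the sets differed. Lama3 was at 93.7, 92.99, 67.0 and 80.7 CPM in the Mfge8/Gldc astrocytes and 60.8, 43.2, 7.06 and 8.28 in the Agt/Slc6a11 astrocytes, and Emx2os at 125, 92.1, 84.4 and 99.3 CPM beside 75.1, 108, 7.94 and 8.84. In the Mfge8/Gldc astrocytes both genes kept a like level under both region labels, and in the Agt/Slc6a11 astrocytes they were lower under the striatum label. Thyroid hormone genes were among those higher, with the transporter Slco1c1 at 491, 367, 309 and 248 CPM beside 293, 200.4, 128 and 121 and the activating enzyme Dio2 at 83.8, 95.7, 49.5 and 24.8 CPM beside 53.6, 37.0, 28.2 and 19.3. Grm3 was at 1012, 1181, 503 and 428 and Mertk at 840.2, 805, 382 and 296 in the Agt/Slc6a11 astrocytes. On the lower side, Slc6a9, a glycine transporter, gave −1.77, −0.53, −1.98 and −1.79, Erbb4 −0.74, −1.04, −1.999 and −1.83 and the AMPA receptor subunit Gria1 −1.10, −0.59, −1.45 and −1.90. The long noncoding A330076C08Rik gave 0.08, −0.77, −3.98 and −4.59, from 8, 8, 3 and 1 UMIs in the Mfge8/Gldc astrocytes.

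Clustering of the 1040 nuclei gave 7 clusters, of which 3 held most nuclei. The clusters were made from all genes of these nuclei, so that their leading genes are a description. Cluster 1 (444 nuclei, 42.7%) was led by Ttr, Gm26843, Dio2 and Lypd6, but 283 of its 509 UMIs of Ttr lay in the 1 nucleus of cortex AAV-CTRL named above. Grm3 was at 2175, 2141, 2653 and 2324 CPM in its nuclei, beside 994, 1129, 1034 and 936 in cluster 2, and Slco1c1 at 635, 523, 931 and 456 beside 399, 269.5, 281 and 321. Cluster 2 (400 nuclei, 38.5%) was led by Gfap, the matrix protein Tnc, Igfbp5, the complement gene C4b, Cst3 and Id3. Gfap was at 207, 249, 311 and 160.4 CPM (42, 98, 31 and 6 UMIs) in cluster 2 and at 22.3, 29.2, 113 and 91.1 in cluster 1, and Aqp4 at 472, 483, 743 and 321 beside 234, 226, 339 and 273. Apoe and Cst3 were also higher in cluster 2, at 3346, 4366, 5017 and 4171 and 3656, 5266, 4476 and 5267 beside 1498, 1782, 2286 and 2552 and 1273, 1557, 1609 and 2233 CPM. Between the libraries labelled cortex, Cst3 was higher with AAV-VEGF-C in clusters 1 and 2, by less than 1.5-fold in each.

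Cluster 3 (113 nuclei, 10.9%) was led by Zic1, Erbb4, Gria4 and Etnppl, a lyase of astrocytes. It held 2.81%, 1.98%, 43.9% and 44.1% of the Mfge8/Gldc astrocytes, while cluster 1 held 51.6%, 50.4%, 10.3% and 13.6%. Cluster 2 held 36.9%, 41.3%, 36.1% and 28.8%. The nuclei of the striatum label were thus mainly in clusters 2 and 3 and those of the cortex label in clusters 1 and 2. Zic1 was at 4.92, 12.7, 161 and 160.4 CPM in cluster 2 and 110.0, 49.2, 165 and 176 in cluster 3, beside 8.86, 8.32, 101 and 106 in reference oligodendrocytes. In the libraries labelled striatum Zic1 was thus at like levels in clusters 2 and 3. In those labelled cortex cluster 3 held 9 and 10 nuclei.

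The remaining 4 clusters, with 83 nuclei, were led by genes of other cells. Cluster 4 (27 nuclei) was led by Galntl6, Lhfpl3 and Nxph1, and the summed CPM of listed oligodendrocyte precursor genes was 5.14-fold and that of listed neuron genes 3.08-fold that of all other Mfge8/Gldc astrocytes. Cdh18 and Kcnc2 were also among its leading genes. Cluster 5 (22 nuclei) was led by the oligodendrocyte genes St18, Prr5l, Mag and Mbp, at 8.95-fold for its list. Cluster 6 (20 nuclei) was led by Mgp, Ptgds and Cped1, with the list of mural cells and fibroblasts at 12.7-fold, and cluster 7 (14 nuclei) by 1700007G11Rik, Dnah12 and Tmem212, with the list of ependyma and choroid plexus at 15.1-fold and a median of 6832 UMIs per nucleus. Scrublet called 15 nuclei of cluster 4 and 8 of cluster 5 as doublets, and 1 and none in clusters 6 and 7. The 83 nuclei were 28, 32, 15 and 8 of the 4 libraries. Clusters 4, 5 and 6 had medians of 3434, 2786.5 and 2438.5 UMIs per nucleus, beside 2127, 1775 and 2028 in clusters 1, 2 and 3. The deepest nucleus of each library lay in cluster 7 and gave 2.95%, 3.54%, 7.10% and 7.25% of the UMIs of the set. The 83 nuclei thus weighed more in the summed UMIs than in the number of nuclei. Without the 83 nuclei 92 genes were past the fold between AAV labels under the cortex label and 32 under the striatum label, and 273 and 501 between region labels.

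The genes past the fold under both region labels were followed through the 3 large clusters. Rps28 was at 169.9, 249.8, 169 and 228 CPM in cluster 1, 231, 435, 201 and 348 in cluster 2 and 219.9, 442, 265 and 352 in cluster 3, and it was higher with AAV-VEGF-C in each cluster under each region label, with 6 and 5 UMIs in cluster 1 of the striatum label and 4 and 9 in cluster 3 of the cortex label. Rps29 was at 389.9, 788, 508 and 365, 714, 951, 572 and 829 and 659.8, 836, 473 and 767 CPM, and was lower with AAV-VEGF-C in cluster 1 of the striatum label, from 18 and 8 UMIs. Id3 was at 36.2, 82.1, 28.2 and 91.1 in cluster 1 and 153, 178, 241 and 187 in cluster 2. In cluster 2 the log2 difference of Id3 between the libraries labelled cortex was smaller than in cluster 1, though both libraries stood higher there.

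**Figure D5:**
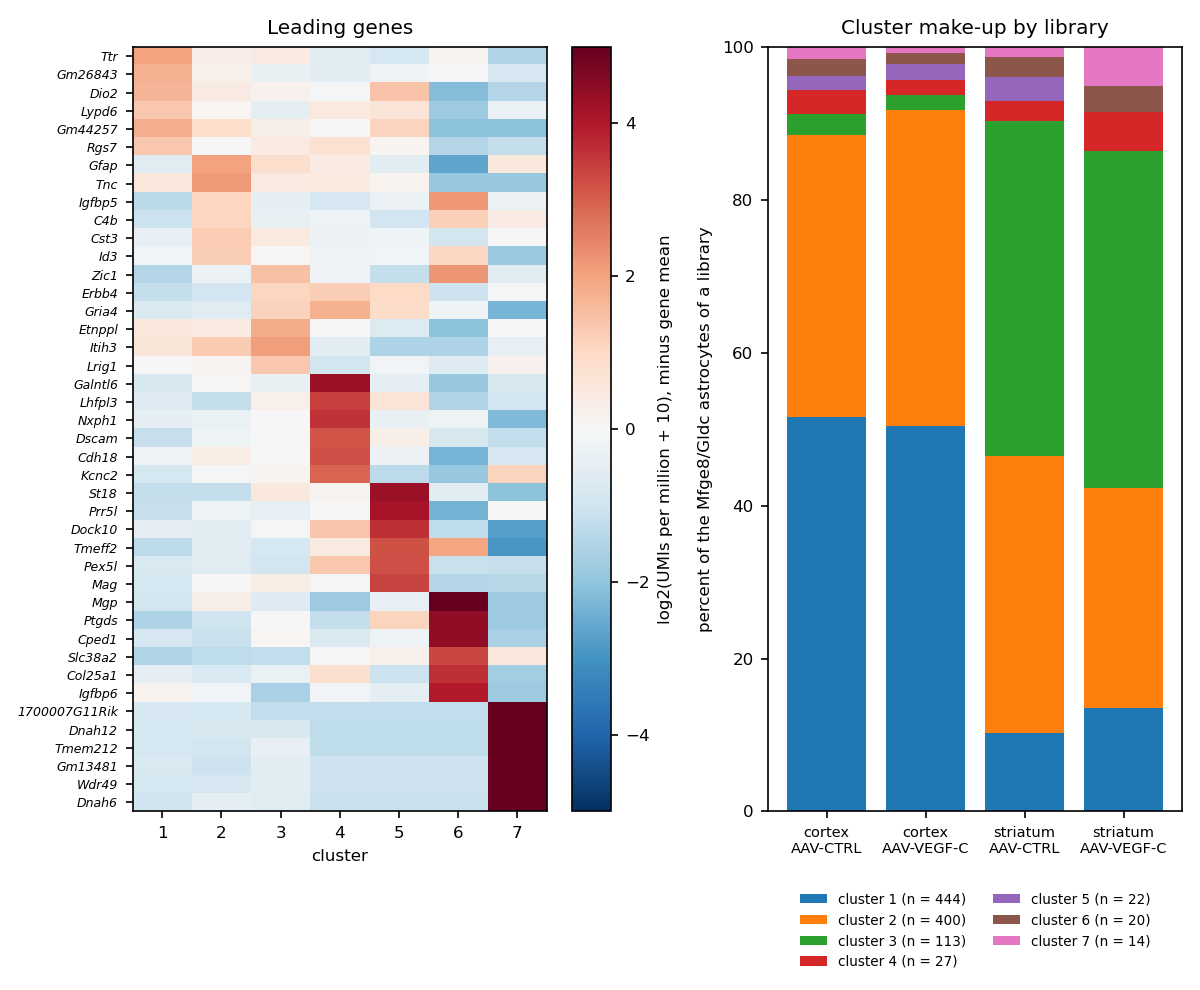
Leading genes of the 7 clusters of Mfge8/Gldc astrocytes as log2 of UMIs per 1000000 plus 10, minus the mean of the gene over clusters with colours capped at 5 in either direction (left), and the percent of each library's Mfge8/Gldc astrocytes in each cluster (right). Cluster 1 held 51.6% and 50.4% of the libraries labelled cortex, and cluster 3 held 43.9% and 44.1% of those labelled striatum.

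Genes of other cell types moved with some of these results. Summed neuron genes, without the 5 that the rule used, were at 8893, 8265, 7398 and 6446 CPM in the Mfge8/Gldc astrocytes. They were at 32552, 32101, 26191 and 25606 in all other nuclei, and none of these 10 genes was at 0 in the Mfge8/Gldc astrocytes. Oligodendrocyte genes were at 1162, 1129, 2786 and 2016 beside 1739, 1735, 4086 and 4402, and were higher under the striatum label in both. Precursor genes were at 413, 301, 576 and 658, microglial genes at 220.2, 199.5, 128 and 118, endothelial genes at 95.2, 102, 160.1 and 86.9 and genes of mural cells and fibroblasts at 378, 415, 888 and 757. Genes of ependyma and choroid plexus were at 1109, 534, 402 and 918, with Ttr at 618, 161, 166 and 130.3 CPM, and genes of other astroglia at 366, 363, 675 and 385. Their part in the differences between libraries was not tested.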

How the data were processed

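Single-nucleus RNA was measured in 4 droplet libraries, 1 per region and AAV label, and each library was grouped by its labels, with no sample left unassigned. The authors deposited UMI counts per gene and barcode, filtered to nuclei and not normalized. The matrix headers name Cell Ranger 5.0.1, while the submitters' processing notes name 5.1.1 and the mm10 build. The annotation and the use of intron reads and strand are not given in the sources used here. Total UMIs per library were 63165470 to 78332657, and 161181 to 1107647 in the Mfge8/Gldc astrocytes.

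UMIs were summed over the nuclei of a library and scaled to 1000000 (Python 3.11.15, numpy 2.4.6, scipy 1.17.1 and pandas 2.3.3). Ratios carry exact conditional binomial 95% intervals, shares exact binomial (Clopper-Pearson) intervals and levels exact Poisson intervals. No test was run, since each group held 1 library. A gene with 3 UMIs in a library stood at 4.26, 2.71, 8.73 and 18.6 CPM, which is the limit that a count of 0 allows. The 1040 nuclei were clustered with scanpy 1.11.5 and leidenalg 0.10.2 (counts scaled to 10000 per nucleus, logarithm, 2000 variable genes, 30 principal components, 15 neighbours, Leiden resolution 0.5). Scrublet was run per library at an expected rate of 8%, and no called doublet was removed. Figures were drawn with matplotlib 3.10.9. The ratio script was tested on simulated data.

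The nuclei and the 30 gene lists were chosen with earlier results of these data known, and a list of 83 ribosomal genes was written after the values had been seen. Of the listed genes, 2 were not found in the files under their symbols. Named genes were the 8 highest and 8 lowest ratios between AAV labels, those past the fold under both labels, the 10 highest and 10 lowest between region labels and the 12 highest and 12 lowest between astrocyte sets, with the most abundant, highest and lowest genes of each list. Other genes named, among them the patterning factors and the leading genes of clusters, were chosen after their values were seen. Some genes of the named set are not reported here. All 257 genes of the named set were matched to GENCODE M21 by gene ID. Alternatives were stricter gates, nuclei thinned to 1000 UMIs, called doublets or shared barcodes left out, TMM factors from edgeR 4.0.16 in R 4.3.3, equal weights per nucleus, other minimum counts, a 2-fold threshold, a margin of 3 UMIs and Leiden resolutions of 0.3 and 0.8.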

Additional observations from a re-analysis of the deposited data

Results flagged for a closer look

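The share of Mfge8/Gldc astrocytes among all nuclei had a log2 ratio of AAV-VEGF-C over AAV-CTRL of 0.41 under the cortex label and −0.95 under the striatum label. It stands here because the libraries of the 2 region labels moved in opposite directions under the same contrast. With 1 library per group the difference between region labels was not tested.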

How the results depend on the processing

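No paired analysis was possible because each group held 1 library. Under every alternative to the choice of nuclei that was run, the share of Mfge8/Gldc astrocytes stayed higher with AAV-VEGF-C under the cortex label (log2 ratio 0.28 to 0.45) and lower under the striatum label (−0.62 to −1.02). Counts of genes past the fold moved more, and are given in the order cortex label, striatum label, region labels with AAV-CTRL, region labels with AAV-VEGF-C, against 121, 52, 370 and 642. A minimum of 30 UMIs gave 1061, 801, 1746 and 2715, a minimum of 300 gave 11, 4, 53 and 108, and at least 1 UMI in each library gave 4751, 5466, 5768 and 6283. A 2-fold threshold gave 3, 3, 107 and 189. An astrocyte gate of 10 UMIs gave 68, 26, 123 and 166, gates on other cell types at 0 gave 39, 16, 76 and 152, and thinning to 1000 UMIs gave 25, 5, 52 and 82. These 3 leave fewer nuclei or UMIs. Against 369 genes between the astrocyte sets, the gate at 10 gave 204, the gates at 0 gave 215, thinning gave 92, a margin of 3 UMIs gave 757 and leaving out the clusters led by other cell types gave 579. The last alternative, chosen after seeing the data, gave 32 genes under the striatum label. A Leiden resolution of 0.3 gave 4 clusters against 7, and 0.8 gave 9.

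Of the log2 ratios of named genes under all alternatives, 590 stayed within their counting interval, 71 moved past it and 18 turned. Galntl6 under the cortex label turned to 1.26 with the gate at 10, 1.26 with the gates at 0, 0.48 after thinning and 0.19 without the clusters of other cell types. After thinning, Nxph1 and Id3 under the cortex label were at 0.012 and −0.34, and Tmtc2, Dcc, Agbl4 and Asic2 under the striatum label at 0.61, 0.45, −0.29 and −0.028. With the gates at 0, Slit2, Pdzrn3, Apod and Asic2 under the striatum label were at 0.82, 0.82, −1.60 and −0.041. With equal weights per nucleus Slit2 and Col23a1 were at 0.64 and 0.79, and without the clusters of other cell types at 1.44 and 1.39. The cause of these turns was not tested, and each alternative but the equal weights leaves fewer UMIs. The 343471 and 161181 UMIs of the libraries labelled striatum together set the number of genes that could be compared under that label.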
